A study of Mus musculus with 37 samples.

Results

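The CNC transcription factors, the small Maf proteins they pair with and the repressor Keap1 were followed in bulk RNA sequencing of mouse embryonic hearts. The group holds 10 genes, which are Nfe2, Nfe2l1, Nfe2l2, Nfe2l3, Bach1, Bach2, Keap1, Maff, Mafg and Mafk. They were found by symbol in a table of raw read counts with 25239 gene rows. All 10 were present, and all 10 were among the 15046 genes that passed the filter on low counts. Nfe2l3 was chosen by its measured difference between double heterozygous and wild-type hearts in these same libraries, and the other 9 genes by their known place in the network. The Nfe2l3 values in the comparisons among the 4 genotypes are therefore given as a description, with no test.

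The study asked how loss of 1 copy of Nipbl, whose protein loads cohesin onto chromosomes, and of 1 copy of Isl1, a LIM-homeodomain factor of heart progenitors, act alone and together. Hearts were taken at E10.5 (embryonic day, counted from mating) from crosses of Stra8-iCre; Nipbl Flox/+ fathers with Isl1 Cre/+ mothers. Stra8-iCre acts in the male germ line. The submitters' design text names 2 Nipbl alleles in the sperm, Flox, which counts as wild type, and FIN, which is null, and does not mention the + allele that Flox/+ fathers also carry. Isl1 Cre/+ mothers carry Cre in 1 Isl1 allele, and that allele is the Isl1 mutation of the offspring. The 4 groups were Nipbl +/+; Isl1 +/+ (wild type, 10 libraries), Isl1 +/- (9 libraries), Nipbl +/- (9 libraries) and Nipbl +/-; Isl1 +/- (double heterozygous, 9 libraries). An Isl1 +/- heart carries Cre and may also carry a Nipbl Flox allele. Recombination of that allele was not tested, and Nipbl stood at 61.5 ± 5.88 counts per 1000000 scaled reads (CPM; SD, n = 9) in Isl1 +/- hearts and at 60.0 ± 10.1 (SD, n = 10) in wild type. The labels do not say whether a library is 1 heart or a pool, so p-values measure the spread between these libraries.

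CNC factors are basic leucine zipper proteins that bind DNA as partners of a small Maf protein. Nfe2, Nfe2l1, Nfe2l2 (Nrf2) and Nfe2l3 activate genes, Bach1 and Bach2 repress them, and the small Mafs Maff, Mafg and Mafk lack an activation domain of their own. Keap1 holds Nrf2 for degradation until oxidants or electrophiles modify it, after which Nrf2 switches on antioxidant and detoxifying genes through the antioxidant response element. Nfe2l1 raises proteasome subunit genes when the proteasome is short, Nfe2 is a factor of red cell and platelet precursors, and Bach1 releases its targets, Hmox1 among them, when heme binds it. Nfe2l3 is anchored in the endoplasmic reticulum and turned over quickly, and is best known from placenta and tumor cells.

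Nfe2l3 lies at chr6:51432670-51458768 on the plus strand of GRCm38 (GENCODE M21), and in the RefSeq gene table no other gene overlaps it. The 250 bases before its start in RefSeq (GRCm38.p6), chr6:51432419-51432668, are shown because Nfe2l3 is the member chosen for its difference between double heterozygous and wild-type hearts. Capitals mark the letters GGGCGG (GC box), which occur at 2 places.
Nfe2l3 promoter: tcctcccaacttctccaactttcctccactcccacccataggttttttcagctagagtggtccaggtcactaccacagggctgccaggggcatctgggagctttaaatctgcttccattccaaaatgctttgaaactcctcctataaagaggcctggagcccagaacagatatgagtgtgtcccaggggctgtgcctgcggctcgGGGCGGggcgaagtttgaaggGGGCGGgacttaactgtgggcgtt
This window has 55.2% G and C bases and 6 CpG, against medians of 52.4% and 6 over 32841 RefSeq promoter windows. GGGCGG occurred in windows of 35.4% of 27018 genes, searched on both strands.

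The core of the antioxidant response element, TGACNNNGC, was searched on both strands in windows of the 250 bases before the start. It was found in 4 of the 9 members with a window, namely Nfe2l2, Maff, Mafg and Mafk, and in 11.5% of all genes. The stretches around these matches are shown with the core in capitals, since this is the sequence the factors themselves bind.
Nfe2l2, chr2:75704870-75704913, minus strand: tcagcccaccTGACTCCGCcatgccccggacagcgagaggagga
Maff, chr15:79346484-79346542, plus strand: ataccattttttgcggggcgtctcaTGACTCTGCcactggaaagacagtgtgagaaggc
Mafg, chr11:120633736-120633794, minus strand: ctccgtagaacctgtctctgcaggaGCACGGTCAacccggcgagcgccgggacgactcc
Mafk, chr5:139791498-139791535, plus strand: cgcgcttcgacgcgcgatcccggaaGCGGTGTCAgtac
In Mafg and Mafk the core reads on the opposite strand, so its reverse complement is in capitals. Nfe2l3 has no match in its window. The palindromic AP-1 and NF-E2 core TGANTCA, which can overlap the first core, was found in 0 of the 9 members and in 7.82% of genes. A match describes the letters only.

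Libraries held 23.36 M to 50.97 M counted reads, with a median of 36.24 M (M stands for 1000000). The description labels carry a number after the letters IVF, called the set here, whose meaning they do not give, and it was a term in the fits reported unless another is named. Sets 2, 5 and 6 hold all 4 genotypes, set 1 holds only wild-type and Isl1 +/- libraries, and set 7 holds 1 double heterozygous library, so that 8 double heterozygous libraries inform the contrasts. As a check of the labels, Nipbl was below every wild-type library in 8 of 9 Nipbl +/- and 8 of 9 double heterozygous libraries. The library labelled Nipbl +/- 2 had Nipbl at 72.4 CPM, where the other 8 of its group lay between 27.1 and 44.9. It also stood above all other 36 libraries in 30.0% of the genes tested and below all of them in 27.7%, so values are given without it where leaving it out moves them. Isl1 reads did not separate the Isl1 genotypes, at 7.37 ± 2.24 CPM (SD, n = 10) in wild type and 6.28 ± 1.76 (SD, n = 9) in Isl1 +/- hearts. They stood at 13.0 ± 2.82 (SD, n = 9) in Nipbl +/- and 9.50 ± 3.51 (SD, n = 9) in double heterozygous hearts, groups that overlapped. All 9 Nipbl +/- libraries lay above the wild-type mean. Cardiomyocyte markers summed to between 30170 and 46830 CPM in every library, as the tissue label says.

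Corrected for length (CPM per kilobase of merged exons, mean over the 36 libraries without the one that stands apart), the members covered a wide range. Nfe2l1 was the most abundant at 30.7 ± 3.94 (SD), followed by Keap1 at 17.6 ± 1.05 and Nfe2l2 at 12.8 ± 1.05. Mafk stood at 9.80 ± 1.11, Nfe2 at 5.51 ± 4.73, Bach1 at 4.99 ± 1.21 and Maff at 4.54 ± 0.796. Mafg followed at 2.72 ± 0.446, Nfe2l3 at 1.81 ± 0.703 and Bach2 at 1.30 ± 0.184. Nfe2 could not be ranked against Mafk, Bach1, Maff, Mafg, Nfe2l3 or Bach2 within this spread. The place of Nfe2l3 next to Bach2 and Mafg depended on genotype. In wild type Nfe2l3 was at 1.13 ± 0.281 (SD, n = 10) and Bach2 at 1.27 ± 0.163, within the spread. In Nipbl +/- hearts Nfe2l3 was at 2.29 ± 0.439 (SD, n = 8) against 1.23 ± 0.191 for Bach2, and in double heterozygous hearts at 2.53 ± 0.352 (SD, n = 9) against 1.38 ± 0.227. Mafg stood at 2.77 ± 0.44 in wild type, 2.54 ± 0.40 in Nipbl +/- and 2.62 ± 0.39 in double heterozygous hearts. It was above Nfe2l3 in wild type and within the spread of it in both groups labelled as lacking a Nipbl copy. Nfe2l3 was thus one of the scarcest members, with 61 to 372 raw counts per library.

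Nfe2l3 was higher in both groups labelled as lacking a Nipbl copy. Wild-type libraries ranged from 1.85 to 4.37 CPM with a median of 3.56 and a mean of 3.36 ± 0.835 (SD, n = 10). Nipbl +/- libraries ranged from 5.51 to 9.14 CPM with a median of 5.91 and a mean of 6.72 ± 1.26 (SD, n = 9). Double heterozygous libraries ranged from 5.81 to 9.02 CPM with a median of 7.25 and a mean of 7.52 ± 1.05 (SD, n = 9). All 9 libraries labelled Nipbl +/- and all 9 double heterozygous libraries lay above every wild-type library, and the Nipbl +/- range is the same without the library labelled Nipbl +/- 2, whose Nipbl level went against its label. Groups that do not overlap, with the mutant higher, occurred in 0.133% of the genes tested for Nipbl +/- and in 0.326% for double heterozygous hearts, but Nfe2l3 was chosen for this difference.

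**Figure D1:**
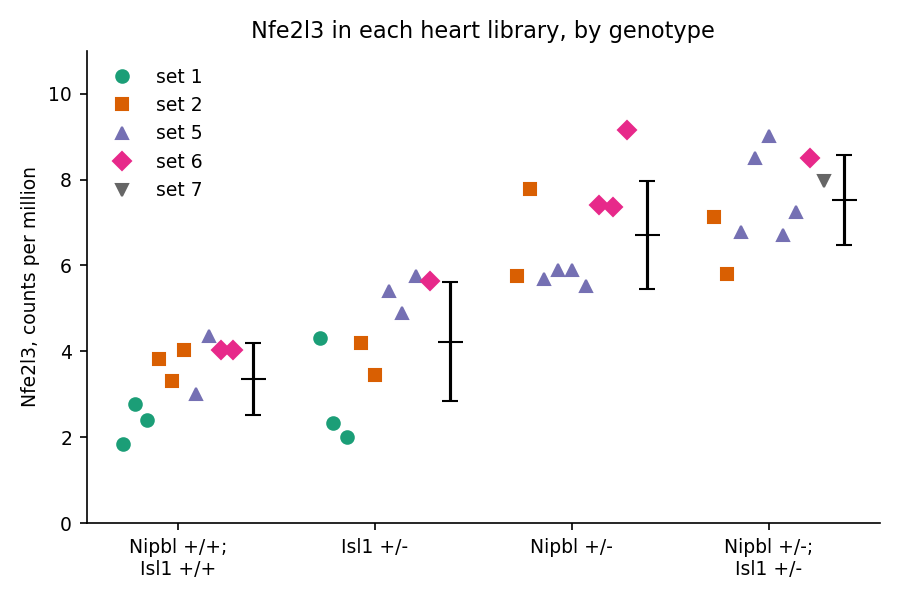
Nfe2l3 in CPM (y axis) in each of the 37 libraries, by genotype (x axis), with the set of each library as color and symbol and the group mean ± SD to the right of its points. The 18 libraries labelled Nipbl +/- or double heterozygous start at 5.51, above the highest wild-type library at 4.37, and the Isl1 +/- libraries run from 2.01 to 5.76.

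Isl1 +/- hearts lay between. Their Nfe2l3 level ranged from 2.01 to 5.76 CPM with a median of 4.32 and a mean of 4.22 ± 1.38 (SD, n = 9), and 4 of the 9 libraries lay above every wild-type library while the others overlapped it. The double heterozygous libraries did not overlap the Isl1 +/- libraries, since the lowest was at 5.81, although the gap was small. Groups of this comparison did not overlap in that direction in 0.186% of genes. The Nipbl +/- libraries did overlap the Isl1 +/- libraries.

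On the log2 scale, with the set as a term, Nfe2l3 differed from wild type by 0.77 (SE 0.13) in Nipbl +/- hearts, which is 1.71-fold. The difference was 0.98 (SE 0.13) in double heterozygous hearts, or 1.97-fold, and 0.35 (SE 0.12) in Isl1 +/- hearts. Loss of a Nipbl copy on the Isl1 +/- background came with a difference of 0.62 (SE 0.13), and loss of an Isl1 copy on the Nipbl +/- background with 0.20 (SE 0.13). The double difference less the sum of the single differences was -0.15 (SE 0.17), and it ran from -0.20 without Isl1 +/- 3 to -0.05 without Isl1 +/- 1 when 1 library was left out. Without the library labelled Nipbl +/- 2, whose Nfe2l3 level of 5.90 CPM was like that of its group, the Nipbl +/- difference was 0.79 (SE 0.13) and the double heterozygous one 0.96 (SE 0.13). The comparisons with wild type share the wild-type libraries.

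The set moved Nfe2l3 as well. Wild-type libraries of set 1 averaged 2.34 CPM, and those of sets 2, 5 and 6 averaged 3.71, 3.69 and 4.04. Set 1 holds no library that lacks a Nipbl copy. Within sets, the mean log2 CPM of Nipbl +/- libraries exceeded that of wild type by 0.84 in set 2, 0.66 in set 5 and 0.96 in set 6. The double heterozygous libraries exceeded wild type by 0.79, 1.06 and 1.06 in the same sets. No genotype that lacks a Nipbl copy overlapped wild type in any of these sets, as the ranges over all sets already imply. Isl1 +/- libraries exceeded wild type by 0.24 in set 1, 0.04 in set 2, 0.55 in set 5 and 0.48 in set 6, and overlapped it in sets 1 and 2. The difference between Isl1 +/- and wild type was thus uneven over sets, while both groups labelled as lacking a Nipbl copy exceeded wild type by at least 0.66 in each (0.64 in set 5 without the library labelled Nipbl +/- 2). Double heterozygous libraries exceeded Isl1 +/- libraries by 0.75 in set 2, 0.50 in set 5 and 0.59 in set 6, the last from 1 library of each. Over all genes tested, the set term passed the threshold in 38.2%.

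The comparison of Nipbl +/- with Isl1 +/- hearts uses only the 18 libraries outside the double heterozygous and wild-type groups, whose difference chose Nfe2l3. It is the one test given for this gene. Members were chosen with earlier results of these data known, so the test is not fully independent of that choice. Nipbl +/- and Isl1 +/- hearts differ at both genes. Nfe2l3 was higher by 0.39 (SE 0.17) in Nipbl +/- hearts and did not pass the threshold of 0.05, with an edgeR adjusted p of 0.394 and an unadjusted p of 0.0311. Over all genes, 0.26% passed in this comparison. Without the library labelled Nipbl +/- 2 the difference was 0.40 (SE 0.16), with an edgeR adjusted p of 0.203, and 2.11% of genes passed. Over the 4 alternative fits of this Nfe2l3 comparison the difference ran from 0.39 to 0.72 and the adjusted p from 0.113 to 0.264 (edgeR or DESeq2), so none passed.

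The genes beside Nfe2l3 on chromosome 6 were measured to see how far its difference extends. Hnrnpa2b1, which encodes an RNA-binding protein and starts closest downstream, had 1319 ± 96.7 CPM (SD, n = 10) in wild type and 1210 ± 77.1 (SD, n = 9) in double heterozygous hearts, a log2 difference of -0.08 (SE 0.07). In Nipbl +/- hearts it had 1135 ± 158.1 CPM (SD, n = 9), a difference of -0.16 (SE 0.07), and -0.11 (SE 0.04) without the library that stands apart. None of these passed the threshold. Cbx3, which encodes heterochromatin protein HP1 gamma, fell in double heterozygous hearts by 0.25 (SE 0.07) on the log2 scale, from 175.2 ± 18.6 to 157.1 ± 17.4 CPM (edgeR adjusted p = 0.0364). In Nipbl +/- hearts its difference from wild type was -0.23 (SE 0.07, edgeR adjusted p = 0.0615). It passed there too when the library that stands apart was left out, at -0.25 (SE 0.06, edgeR adjusted p = 0.0293). Isl1 +/- hearts had Cbx3 at 157.4 ± 13.7 CPM (SD, n = 9), close to the 156.8 ± 19.0 of Nipbl +/- hearts. Their difference from wild type was -0.15 (SE 0.06, edgeR adjusted p = 0.780), and double heterozygous hearts differed from them by -0.10 (SE 0.07). In the effect of Nipbl loss averaged over both Isl1 genotypes, Cbx3 differed by -0.16 (SE 0.05, edgeR adjusted p = 0.0559), short of the threshold. It passed there without the library that stands apart, at -0.17 (SE 0.05, edgeR adjusted p = 0.0244). Whether the lower Cbx3 level was called with Nipbl loss in this averaged effect thus depended on 1 library. Snx10, a sorting nexin gene, differed by 0.01 (SE 0.08) and 0.02 (SE 0.08) in Nipbl +/- and double heterozygous hearts. On the other side, 4921507P07Rik and Npvf averaged 1.05 and 0.413 CPM in wild type and did not pass, and Gm38821 has no row in the table. Among the 5 neighbours with a row, Cbx3 was called in double heterozygous hearts with all libraries. Without the library that stands apart, it was called in both genotypes and in the averaged effect. Of all genes, 2.6% were called in the first, and 5.57% and 2.72% in double heterozygous and Nipbl +/- hearts without that library. In the averaged effect without it, 1044 of 15072 genes were called.

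Over the 37 libraries, with the set means removed, the 5 genes whose log2 CPM followed Nfe2l3 most closely were Adap1, Cpz, Plat, Rarres1 and Wnt9a, with Pearson r of 0.81, 0.78, 0.78, 0.77 and 0.76. These libraries share the genotype differences, so the values describe a likeness of pattern. Adap1 encodes an Arf GTPase activator, Cpz a carboxypeptidase, Plat tissue plasminogen activator and Wnt9a a Wnt ligand. Plat, for example, averaged 49.2 ± 8.57 CPM (SD, n = 10) in wild type, 66.5 ± 4.65 (SD, n = 9) in Nipbl +/- and 71.7 ± 4.82 (SD, n = 9) in double heterozygous hearts. Among the other members r ran from -0.09 for Mafg to 0.22 for Bach1, with Maff at 0.15. Over the 36 libraries without the one that stands apart it ran from -0.19 for Keap1 to 0.34 for Bach1, with Maff at 0.33. Nipbl itself ran opposite to Nfe2l3, with r of -0.69 over 37 and -0.71 over 36 libraries. With the genotype means removed as well as the set means, r over the 37 libraries was between 0.34 and 0.55 for the 5 genes and -0.11 for Nipbl.

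Epicardial markers moved in the same hearts. Of 7 markers, 5 rose in double heterozygous against wild-type hearts, where 1.77% of all genes did, among them Wt1 by 0.53 (SE 0.08) and Upk3b by 0.72 (SE 0.12), with edgeR adjusted p of 6e-05 and 0.000503. In Nipbl +/- hearts 1 of 7 rose, which was Wt1, against 1.2% of all genes. Wt1 also rose in double heterozygous against Isl1 +/- hearts by 0.54 (SE 0.08, edgeR adjusted p = 9.5e-05), where 0.532% of all genes did. In the effect of Nipbl loss averaged over both Isl1 genotypes, Wt1, Upk1b and Upk3b rose, where 4.02% of all genes were called in either direction. The summed level of the 7 markers ranged from 261.1 to 463.0 CPM in wild type, 307.3 to 552.7 in Isl1 +/-, 406.6 to 613.9 in Nipbl +/- and 519.0 to 674.2 in double heterozygous libraries, and none was at 0 in any library. Without the library that stands apart, 6 of 7 rose in double heterozygous and 1 of 7 in Nipbl +/- hearts, where 5.57% and 2.72% of all genes were called in either direction. The markers' part in the Nfe2l3 difference was not tested. In bulk tissue, a change in the number of cells of a type and in RNA per cell cannot be told apart.

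Single markers of other cell types were called as well. Of 6 neural and neural crest markers tested, Pax6 rose in Nipbl +/- hearts against wild type by 0.93 (SE 0.23, edgeR adjusted p = 0.0231). In the 18 libraries it was higher in Nipbl +/- than in Isl1 +/- hearts, which differ at both genes, by 1.92 (SE 0.23, edgeR adjusted p = 0.00206). Of all genes, 1.71% and 0.26% were called in these comparisons. Pax6 was scarce, from 0.12 to 1.26 CPM over all libraries. Its mean was 0.87 ± 0.25 CPM (SD, n = 8) in Nipbl +/- hearts without the library that stands apart. Tubb3, a neuronal tubulin gene, passed in Nipbl +/- hearts against wild type when the library that stands apart was left out, at 0.54 (SE 0.13, edgeR adjusted p = 0.0186). In the same way it passed in double heterozygous against Isl1 +/- hearts, at 0.55 (SE 0.14, edgeR adjusted p = 0.0240), and in Nipbl +/- against Isl1 +/- hearts, at 0.88 (SE 0.14, edgeR adjusted p = 0.00391). Without that library, 2.72%, 2.4% and 2.11% of all genes were called in these 3 comparisons. In the effect of Nipbl loss averaged over both Isl1 genotypes, with all libraries, Pax6 rose by 0.81 (SE 0.19, edgeR adjusted p = 0.00697) and Tubb3 by 0.49 (SE 0.13, edgeR adjusted p = 0.0234). In double heterozygous against wild-type hearts the smallest edgeR adjusted p of the list was 0.142 with all libraries and 0.0789 without that one. The 7 neural markers of the list summed to between 25.5 and 54.2 CPM in wild type, 21.1 and 40.9 in Isl1 +/-, 20.2 and 54.0 in Nipbl +/- and 30.3 and 55.2 in double heterozygous libraries, with 1 of 7 at 0 in some library of each group. Of 7 cushion mesenchyme markers, Pdgfra rose in double heterozygous against wild-type hearts by 0.43 (SE 0.12, edgeR adjusted p = 0.0483), and Col1a1 fell by 0.65 (SE 0.14, edgeR adjusted p = 0.00449) in that averaged effect, where 4.02% of all genes were called. The list summed to between 301.5 and 600.9 CPM in wild type, 374.6 and 554.6 in Isl1 +/-, 331.3 and 584.2 in Nipbl +/- and 353.2 and 503.4 in double heterozygous libraries, with none at 0. Leaving out the library labelled Nipbl +/- 2 also brought Csf1r, a macrophage receptor gene, past the threshold in double heterozygous (0.64, SE 0.18, edgeR adjusted p = 0.0287) and Npr3, an endocardial gene, in Nipbl +/- hearts (-0.25, SE 0.07, edgeR adjusted p = 0.0357), each against wild type. The part of these markers in the Nfe2l3 difference was not tested.

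None of the other 9 members passed the threshold in any of the 7 comparisons among genotypes with all libraries (edgeR). At an unadjusted p under 0.05 there was 1 of 9 in Nipbl +/- against wild type and 1 of 9 in the effect of Nipbl loss averaged over both Isl1 genotypes, in both cases Maff, and 0 in the other 5 comparisons. DESeq2 called 0 of the 9 in each comparison and gave no adjusted p for 1 of them. Counting Nfe2l3, 1 of 10 members was called in Nipbl +/- against wild type, where 1.71% of all genes were (1.2% higher, 0.518% lower), and 1 of 10 in double heterozygous against wild type, where 2.6% were (1.77% higher, 0.824% lower). It was likewise 1 of 10 in double heterozygous against Isl1 +/- hearts, where 0.957% of genes were called (0.532% higher, 0.425% lower), and in the averaged effect of Nipbl loss, where 4.02% were. In Isl1 +/- against wild type, in double heterozygous against Nipbl +/- and in the departure from additivity, edgeR called 0 of all genes, with 886, 1355 and 411 at an unadjusted p under 0.05, and DESeq2 called 11 in the first. The count of 1 is the gene the group was drawn up around, so nothing is read from it. The members' median log2 difference was 0.05 in Nipbl +/- and 0.01 in double heterozygous hearts, against 0.00797 and -0.00195 over all genes tested. Leaving out the library labelled Nipbl +/- 2 turned the first median to -0.05 and gave 0.03 for the second, against -0.00985 and -0.00467 over all genes, so neither direction of the members' median is read as a result.

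**Figure D2:**
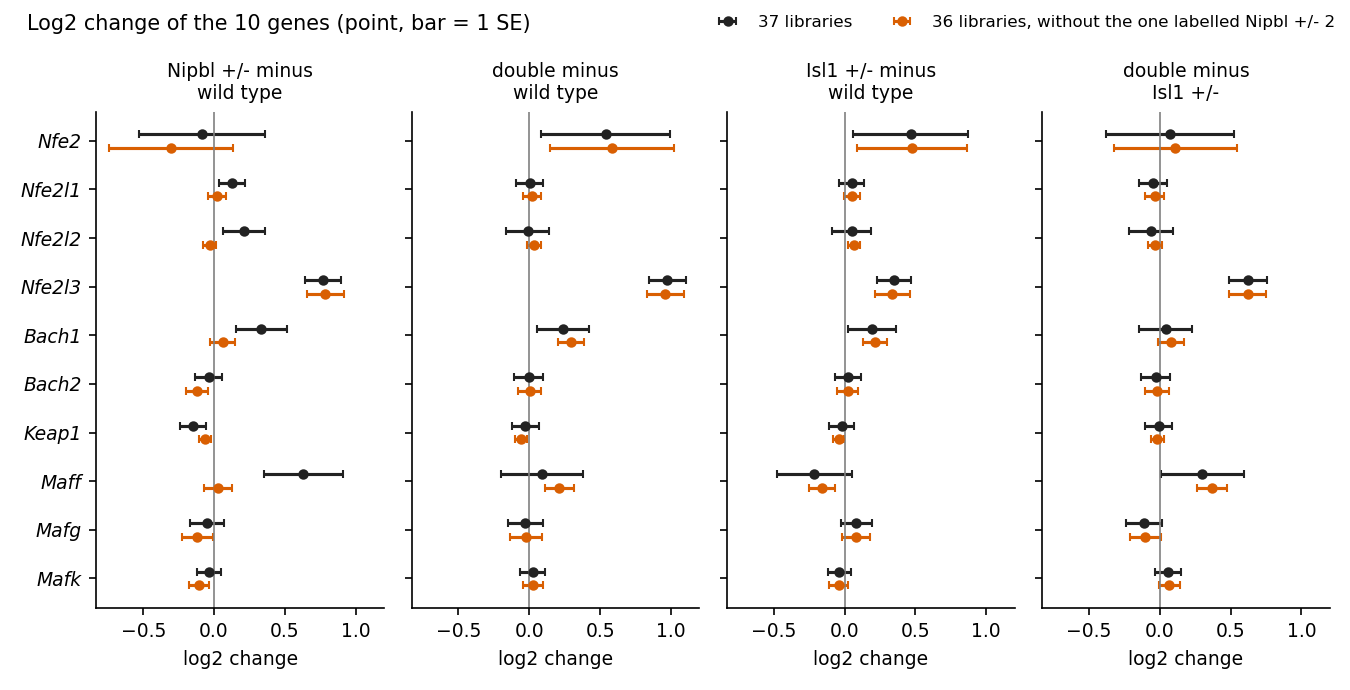
Log2 change (x axis) of each of the 10 genes (y axis) in 4 comparisons of genotypes, with bars of 1 SE, fitted on all 37 libraries (black) and on 36 without the library labelled Nipbl +/- 2 (orange). Nfe2l3 stands to the right of 0 in each panel, and the Maff, Bach1 and Nfe2l2 values of the first panel move toward 0 when that library is left out.

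Among the activators, Nfe2l1, the factor that restores proteasome levels, ranged from 125.3 to 191.5 CPM in wild type (median 152.1), 134.6 to 195.8 in Isl1 +/- (163.6), 151.0 to 304.2 in Nipbl +/- (178.2) and 127.9 to 194.5 in double heterozygous hearts (177.7). The groups overlapped, and its log2 difference from wild type was 0.13 (SE 0.09) in Nipbl +/- and 0.0040 (SE 0.10) in double heterozygous hearts. These were 0.02 (SE 0.06) and 0.02 (SE 0.06) without the library that stands apart, which holds the 304.2 CPM. Nfe2l2, the antioxidant factor, ranged from 41.6 to 56.2 CPM in wild type (median 49.1), 45.02 to 58.7 in Isl1 +/- (48.6), 42.4 to 128.3 in Nipbl +/- (46.7) and 42.8 to 53.8 in double heterozygous hearts (48.4). Without the library that stands apart, its difference in Nipbl +/- hearts was -0.03 (SE 0.05) and that in double heterozygous hearts 0.03 (SE 0.05). Nfe2l2 was therefore measured with a small error in these 36 libraries. Keap1, which restrains Nfe2l2, ranged from 74.5 to 98.5 CPM in wild type and differed by -0.06 (SE 0.04) in both genotypes in the same fit.

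Nfe2 varied widely between libraries of 1 genotype. Wild-type libraries ranged from 4.16 to 70.6 CPM with a median of 9.80, Isl1 +/- from 3.88 to 44.6 with a median of 13.1, Nipbl +/- from 3.17 to 25.9 with a median of 11.9, and double heterozygous from 4.14 to 41.6 with a median of 14.8. All groups overlapped. The log2 difference from wild type was -0.08 (SE 0.45) in Nipbl +/- and 0.54 (SE 0.46) in double heterozygous hearts. The 95% interval of the second difference ran from -0.35 to 1.43, so a difference of this size was not detectable against this spread. Single libraries decided these values. Without wild type 7, which had 70.6 CPM, the Nfe2 differences were 0.36 and 1.02, and without the library labelled Nipbl +/- 2 the first was -0.30. Without double heterozygous 3 the second was 0.21, and none of these passed the threshold. With the mean log2 level of the erythroid markers as a covariate, the Nfe2 differences from wild type were 0.54 (SE 0.31) in Nipbl +/- and 0.16 (SE 0.31) in double heterozygous hearts. Double heterozygous against Nipbl +/- hearts went from 0.62 to -0.38 (SE 0.33) with that covariate, so the order of both genotypes turned, with neither value past the threshold.

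Its level followed that of red cell genes such as the embryonic globins and Alas2. Across 37 libraries, log2 CPM of Nfe2 correlated with the mean log2 CPM of the erythroid markers with Pearson r = 0.864 and Spearman rho = 0.897 (permutation p = 1e-05 each, two-sided, the smallest that 100000 resamples can give). This was the only relation across libraries that was tested, so no adjustment over several was needed. Leaving out the 2 libraries farthest from the median, which were wild type 7 and the library labelled Nipbl +/- 2, gave r = 0.956. Within sets, r was 0.983 over 6 libraries of set 1, 0.969 over 9 of set 2, 0.491 over 14 of set 5 and 0.966 over 7 of set 6. The library that stands apart is in set 5, and without it r there was 0.939 over 13 libraries. It had Nfe2 at 17.4 CPM with the lowest erythroid value of all, 1.99, and the highest summed megakaryocyte and platelet markers, 284.2 CPM, where the highest library of the other 3 genotypes had 131.9.

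**Figure D3:**
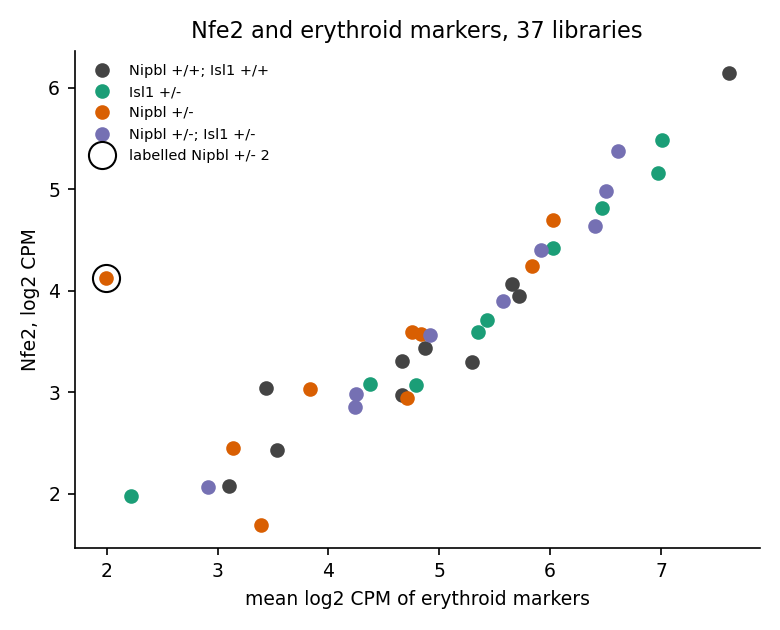
Log2 CPM of Nfe2 (y axis) against the mean log2 CPM of the erythroid markers (x axis) in 37 libraries, colored by genotype, with the library labelled Nipbl +/- 2 ringed. The libraries lie along 1 rising line (r = 0.96 over 36 libraries), and the ringed library stands above it.

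Of the repressors, Bach1, which heme displaces from its targets, ranged from 20.1 to 38.6 CPM in wild type (median 23.4), 21.5 to 38.4 in Isl1 +/- (29.6), 20.98 to 98.3 in Nipbl +/- (33.8) and 26.2 to 46.5 in double heterozygous hearts (38.8). In double heterozygous hearts 5 of 9 libraries lay above every wild-type library and the others overlapped. Its difference from wild type there was 0.24 (SE 0.19, edgeR adjusted p = 0.70) over all libraries. Without the library that stands apart, it was 0.30 (SE 0.09, edgeR adjusted p = 0.0537), just short of the threshold. In Nipbl +/- hearts the difference from wild type was 0.33 with all libraries, 0.06 without the library that stands apart and -0.07 without set 5. It was 0.20 in Isl1 +/- hearts, and double heterozygous hearts differed from these by 0.04. None of these values passed the threshold. Bach1 also moved with the set, with wild-type means from 21.4 CPM in set 1 to 37.6 in set 6. Bach2, the repressor best known from lymphocytes, ranged from 9.94 to 14.9 CPM in wild type and differed by -0.04 (SE 0.10) in Nipbl +/- and by -0.0038 (SE 0.10) in double heterozygous hearts. The Nipbl +/- difference was -0.12 without the library that stands apart, not past the threshold.

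Of the small Mafs, Maff was the member whose values turned most on 1 library. It ranged from 9.15 to 14.4 CPM in wild type (median 12.1), 7.51 to 13.1 in Isl1 +/- (10.8), 9.75 to 80.5 in Nipbl +/- (11.4) and 10.52 to 20.1 in double heterozygous hearts (12.2). The difference between Nipbl +/- and wild type was 0.63 (SE 0.28, edgeR adjusted p = 0.275) over all libraries and 0.03 (SE 0.10) without the library labelled Nipbl +/- 2. Without that library, Maff passed the threshold in double heterozygous against Isl1 +/- hearts, at 0.37 (SE 0.10, edgeR adjusted p = 0.0486), where 2.4% of genes were called. With it, this difference was 0.30 (SE 0.29). Within sets the difference was 0.13 in set 2, 0.39 in set 5 and 0.68 in set 6, the last from 1 library of each. Set 5 holds double heterozygous 3, which had the 20.1 CPM. Mafg and Mafk differed from wild type by no more than 0.05 in size in Nipbl +/- and double heterozygous hearts, with SE between 0.09 and 0.12. Without the library that stands apart, the Nipbl +/- differences were -0.12 (SE 0.11) for Mafg and -0.10 (SE 0.07) for Mafk, neither past the threshold.

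The library labelled Nipbl +/- 2 was above all other 36 libraries for 6 of the 10 members and below them for 1, where 30.0% of all genes were above and 27.7% below. Most genes of this library thus lay outside the range of the others, and nothing particular to the members is read from their count. Maff was at 80.5 CPM against 11.3 ± 1.14 (SD, n = 8) in the others of its genotype, Bach1 at 98.3 against 31.2 ± 7.33, and Nfe2l2 at 128.3 against 46.4 ± 2.33. Nfe2l1, Bach2 and Mafk were higher as well, by 1.75, 1.68 and 1.45 times. Keap1 was below all others, at 36.8 CPM against 82.2 ± 2.98. Hmox1, the heme oxygenase gene that Bach1 represses and Nrf2 activates, was at 250.5 CPM where the highest of the other 36 libraries had 39.2, and Sqstm1, the autophagy receptor gene, was at 518.3 where the highest had 210.0. Of the 24 Nrf2 targets tested, Hmox1 and Sqstm1 were among 6 above all other libraries, and 9 were below them, Txnrd1 and Srxn1 among these. Of 36 proteasome genes, 32 were below all others. Nfe2l3, at 5.90 CPM, was within the range of its genotype.

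**Figure D4:**
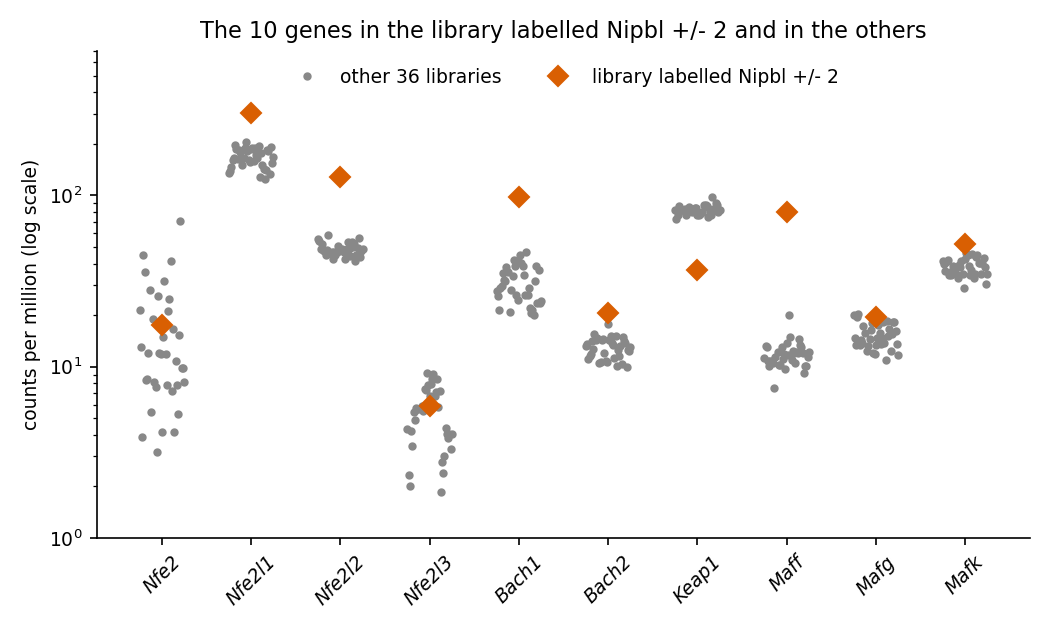
CPM (log scale, y axis) of the 10 genes (x axis) in the library labelled Nipbl +/- 2 (orange diamonds) and in the other 36 libraries (gray points). The diamond is above every gray point for Nfe2l1, Nfe2l2, Bach1, Bach2, Maff and Mafk, below them for Keap1, and among them for Nfe2, Nfe2l3 and Mafg.

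Genes under the control of these factors were followed in lists. Of the proteasome subunit and assembly genes, targets of Nfe2l1, 0 of 36 passed in any of the 7 comparisons by edgeR. Of all genes, 1.71% passed in Nipbl +/- and 2.6% in double heterozygous against wild type, 0.957% in double heterozygous against Isl1 +/- hearts, 4.02% in the averaged effect and 0 in the other 3, so a count of 0 in a list of this size is near the background. At an unadjusted p under 0.05 there were 3 in Nipbl +/- and 2 in double heterozygous hearts against wild type. DESeq2 called 1, Psmd2, in Nipbl +/- hearts, where it called 459 of 15046 genes, and again in the averaged effect, where it called 813. The median log2 difference of the list was -0.12 in Nipbl +/-, -0.13 in double heterozygous and -0.14 in Isl1 +/- hearts, against 0.00797, -0.00195 and -0.00338 over all genes tested. The values were below 0 for 35, 36 and 36 of the 36 genes, and these 3 comparisons share the wild-type libraries. Between double heterozygous and Isl1 +/- hearts the median was 0.01. Without the library labelled Nipbl +/- 2, the median was -0.07 in Nipbl +/- and -0.16 in double heterozygous hearts, and Psmg1, a proteasome assembly chaperone gene, fell in the latter by 0.39 (SE 0.12, edgeR adjusted p = 0.0428), where 5.57% of all genes were called.

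Of 24 Nrf2 target genes tested among 25, 0 were called in Nipbl +/- and 1 in double heterozygous against wild-type hearts by edgeR, where 1.71% and 2.6% of all genes were, with list medians of -0.03 and 0.03. At an unadjusted p under 0.05 there were 5 in Nipbl +/- hearts. Me1, which encodes the NADPH-forming malic enzyme, fell by 0.30 (SE 0.07) in double heterozygous hearts, from 60.3 ± 7.62 CPM (SD, n = 10) to 50.9 ± 5.82 (SD, n = 9), with an edgeR adjusted p of 0.00643. In Nipbl +/- hearts its difference was -0.22 (SE 0.06, edgeR adjusted p = 0.0612), which DESeq2 called and which passed without the library that stands apart, at -0.26 (edgeR adjusted p = 0.0121), with 2.72% of all genes called. Pgd, a pentose phosphate gene, passed in double heterozygous hearts only without that library, at -0.15 (SE 0.04, edgeR adjusted p = 0.0162). Hmox1 differed between Nipbl +/- and wild-type hearts by 0.96 (SE 0.35) with all libraries and by 0.16 (SE 0.09) without that library, neither past the threshold. Its level was 20.9 ± 1.14 CPM (SD, n = 10) in wild type and, without that library, 23.2 ± 2.55 (SD, n = 8) in Nipbl +/- hearts. Without that library Hmox1 rose in double heterozygous against Isl1 +/- hearts by 0.36 (SE 0.09, edgeR adjusted p = 0.0236), where 2.4% of all genes were called. In the same way it passed in Nipbl +/- against Isl1 +/- hearts, at 0.33 (SE 0.07, edgeR adjusted p = 0.0236), where 2.11% were called. It also passed in the averaged effect of Nipbl loss, at 0.26 (SE 0.07, edgeR adjusted p = 0.0112), with 1044 of 15072 genes called. Isl1 +/- hearts had Hmox1 at 18.8 ± 1.015 CPM (SD, n = 9), with all 9 libraries below the wild-type mean.

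Of 15 heme synthesis and breakdown genes, which include Hmox1 and the erythroid gene Alas2, 1 rose in Nipbl +/- and 1 in double heterozygous hearts against wild type, in both cases Slc48a1, which encodes the heme transporter HRG1. Of all genes, 1.2% and 1.77% rose in these comparisons. It rose by 0.30 (SE 0.06, edgeR adjusted p = 0.00563) and by 0.40 (SE 0.06, edgeR adjusted p = 0.000188), from 32.4 ± 4.21 CPM (SD, n = 10) to 38.5 ± 5.12 (SD, n = 9) and 40.2 ± 6.64 (SD, n = 9). In Isl1 +/- hearts it was at 37.9 ± 5.07 CPM, a difference of 0.24 (SE 0.06) that did not pass. The list's median was -0.22 in Nipbl +/- and 0.18 in double heterozygous hearts, and the erythroid markers had medians of -0.75 and 0.71 with 0 of 10 called in each by edgeR. The summed erythroid level ranged from 1877 to 106700 CPM in wild type, 506.3 to 23510 in Nipbl +/- and 1329 to 54250 in double heterozygous libraries, and its part in the list's medians was not tested. The 506.3 CPM is that of the library that stands apart, which these medians include. Its erythroid markers had a median ratio of 0.05 to the mean of the others of its genotype.

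Genes for the processing and turnover of the CNC factors, such as Vcp and Ngly1, had 0 of 16 called in each of the 7 comparisons by edgeR, with 3 at an unadjusted p under 0.05 in Nipbl +/- and 2 in double heterozygous hearts against wild type. The shares of all genes called are those given for the proteasome list, at most 4.02%, and 0 of 16 is near them. DESeq2 called Rad23b in double heterozygous hearts, among 521 of 15046 genes. Without the library that stands apart, edgeR called 2 of 16 in double heterozygous hearts, Rad23b at -0.15 (SE 0.04, adjusted p = 0.0156) and Vcp at -0.16 (SE 0.05, adjusted p = 0.0428), where 5.57% of all genes were called. The Fos, Jun and Atf3 genes, whose proteins share the TGANTCA core, had 0 of 8 called in each of the 7 comparisons by edgeR and by DESeq2. DESeq2 gave no adjusted p for 1 of the 8. With at most 4.02% of all genes called by edgeR, 0 of 8 is near the background. At an unadjusted p under 0.05 there were 3 in Nipbl +/- and 1 in double heterozygous hearts. The 2 with the smallest p in double heterozygous hearts were Jun at -0.20 (SE 0.08) and Jund at -0.13 (SE 0.12). In Nipbl +/- against Isl1 +/- hearts, without the library that stands apart, 2 of 8 were called, where 2.11% of all genes were. Fosl1 was higher by 1.01 (SE 0.23, edgeR adjusted p = 0.0328), and Fosl2 was at -0.35 (SE 0.08, edgeR adjusted p = 0.0411). Fosl1 was scarce, at 0.74 ± 0.36 CPM (SD, n = 8) in these Nipbl +/- libraries and 0.52 ± 0.19 (SD, n = 9) in Isl1 +/- libraries.

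**Figure D5:**
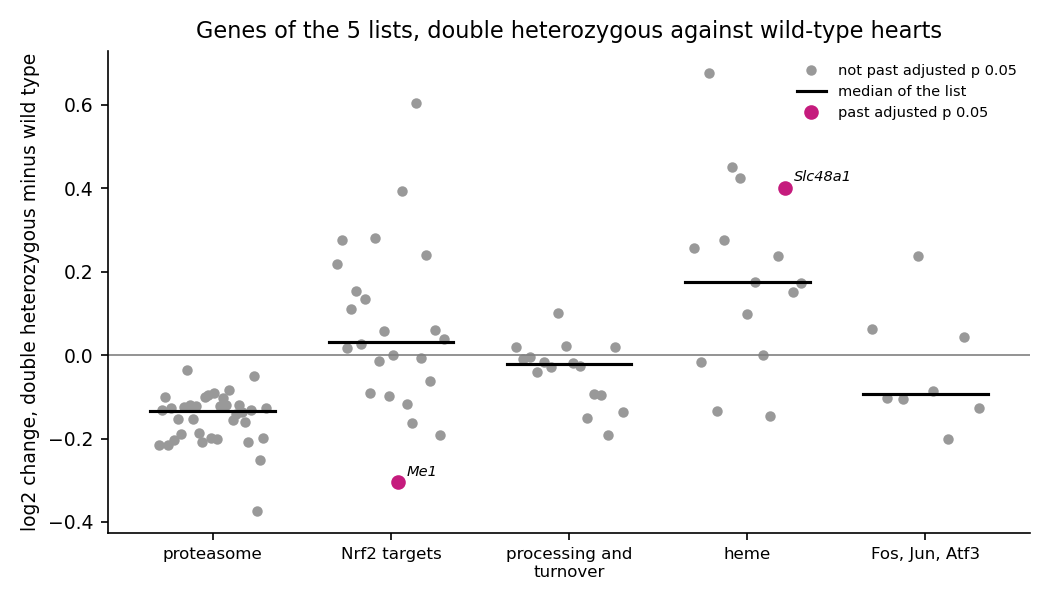
Log2 change in double heterozygous against wild-type hearts (y axis) of each tested gene of the 5 lists (x axis), with the list median as a line and genes past an adjusted p of 0.05 in color. Me1 and Slc48a1 passed, and the 36 proteasome genes lie below 0 with a median of -0.13.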

How the data were processed

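Total RNA of hearts was sequenced as paired-end bulk libraries. The authors deposited raw whole-number counts per gene symbol. STAR, featureCounts and GRCm38 (mm10) are named in the submitters' processing notes, without versions, and strand setting and filters are not given in the sources used here. All 37 columns matched a labelled sample. Reads shared by overlapping or similar genes, such as globins, cannot be resolved.

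Counts were analysed with edgeR 4.0.16 in R 4.3.3, with TMM scaling, filterByExpr (minimum count 10, minimum total 15), genotype and set as terms, and the quasi-likelihood test, two-sided, with Benjamini-Hochberg adjustment over all genes tested and a threshold of 0.05. CPM are counts per 1000000 reads of the TMM-scaled library, and log2 CPM used a prior count of 2. DESeq2 1.42.0, other scalings, filters, blocks and left-out libraries were alternatives. In 153 pairs of libraries of 1 genotype, a chi-square test of counts gave at least 7.49 per degree of freedom, so no pair looked like 1 library deposited again, and whether libraries are independent samples was not tested. The fit was tested on simulated data, with no outcome reported here, so nothing is read from that test. Members, lists and markers (1 of 175 list genes was not found) were chosen with earlier results of these data known. Named were the 10 members, Nipbl and Isl1, in each list up to 4 called genes per direction or the 2 with the smallest p, 3 neighbours of Nfe2l3 on each side, and the 5 genes most like it. Hmox1, Sqstm1, Txnrd1 and Srxn1 in the library that stands apart were named after their values were seen. A further list that was examined is not reported here.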

Additional observations from a re-analysis of the deposited data

Results flagged for a closer look

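In 52 groups of 9 or 10 libraries (the 10 genes, Nipbl, Isl1 and the erythroid value in each genotype), the gap between an extreme library and the nearest other was large against the group's range by Dixon's 95% criterion in 10. Chance alone gives about 1 in 20, or 2.6 here. Of the 10, 7 were the library labelled Nipbl +/- 2: Bach1 at 98.3 CPM, Bach2 at 20.6, Keap1 at 36.8, Maff at 80.5, Nfe2l1 at 304, Nfe2l2 at 128 and Nipbl at 72.4. In wild type 7, Nfe2 was at 70.6 CPM, where the next library had 16.7, and Isl1 was at 13.0, where the next had 8.81. In double heterozygous 3, Maff was at 20.1 CPM, where the next had 14.8.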

How the results depend on the processing

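Nfe2l3 kept its positive sign in all 144 refits of the 3 comparisons that test loss of Nipbl against wild type or Isl1 +/- hearts; values for it are descriptions. Of 3024 refitted values of the other 9 members, 183 changed sign, 0 of them past the threshold, and 1 value passed, Maff without the library labelled Nipbl +/- 2. Counts of genes called moved more. In Nipbl +/- against wild type, 258 genes were called, 467 with no set term, 459 by DESeq2, and 118, 31 and 124 without sets 1, 2 and 5. In double heterozygous against wild type, 391 were called, and 235, 113, 67 and 223 without sets 1, 2, 5 and 6. In double heterozygous against Isl1 +/-, 144 were called, 234 by DESeq2, and 74, 22, 12 and 80 without sets 1, 2, 5 and 6. The members called there went from 1 to 0 without set 2, 5 or 6, where the Nfe2l3 difference was 0.59, 0.67 and 0.61, against 0.62 with all sets. For Nipbl loss averaged over Isl1 genotypes, 605 became 1045 with no set term and 152, 275 and 401 without sets 2, 5 and 6. Isl1 +/- against wild type had 0 and, by DESeq2, 11. Removing a set also removes libraries. Leaving out each library in turn gave 167 to 410, 244 to 839, 73 to 361, 436 to 1044 and 0 to 2 genes in these 5 comparisons, with 1 to 2 members in double heterozygous against Isl1 +/-. The highest came each time without the library labelled Nipbl +/- 2. The lowest of the first 4 came without Nipbl +/- 9, double heterozygous 4, Isl1 +/- 6 and Isl1 +/- 6. In the 18 libraries, 38 became 309 without that library and 294 by DESeq2. DESeq2 gave no adjusted p for 1 member.

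The title numbers do not pair libraries, since same-numbered libraries of different genotypes had a median correlation of 0.028 over 54 pairs, 17 of them over 0.1, and 3 of 36 libraries matched their own number best. With the replicate block in place of the set, double heterozygous against wild type gave 610 genes, the averaged Nipbl effect 993 and the 18-library comparison 13, and the Nfe2l3 differences were 1.04, 1.24 and 0.89 in Nipbl +/- and double heterozygous hearts against wild type and double heterozygous against Isl1 +/-, and 0.97 averaged. The lowest Nfe2l3 count was 61, in a wild-type library, so small differences among wild-type libraries are not detectable at this depth.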

Other observations

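Liver and foregut endoderm markers, such as Afp and Alb, summed to 359.7 CPM in 1 Nipbl +/- library, where the median of that genotype was 1.68 and the highest library of the other 3 genotypes had 18.7.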
